A study of Mus musculus with 6 samples.

Results

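The genes described here are 10 of the respiratory genes that mouse mitochondrial DNA (mtDNA) encodes, measured in whole embryonic hearts. They were taken by name from the deposited count table, in which each symbol of the list stood for 1 row, and they are 10 of its 45792 genes. They comprise mt-Nd1, mt-Nd2, mt-Nd4, mt-Nd5 and mt-Nd6 of complex I, mt-Cytb of complex III, mt-Co1, mt-Co2 and mt-Co3 of complex IV, and mt-Atp6 of complex V. The 6 hearts were dissected at embryonic day 13.5. The labels call 3 of them wild type and give 3 the genotype Tie2Cre with Ino80 flanked by loxP sites on both alleles, and they give C57BL/6 as the strain of all 6, whereas the methods describe mixed backgrounds. The paper treats every genotype other than Tie2Cre with both Ino80 alleles floxed as control, and describes crosses to females with both alleles floxed. The wild-type label may therefore not mean unmodified Ino80. The groups are called control-labelled and mutant-labelled below, and 3 values given for a group are those of replicates 1, 2 and 3 in that order. Ino80 encodes the ATPase of a chromatin remodelling complex, and Cre removes its exon 6. The paper describes Cre under the Tie2 promoter as acting in endothelial and endocardial cells, so cardiomyocytes were not its target. Loss of Ino80 in other cells, such as blood cells and macrophages, was not measured here. A whole heart mixes cell types, and fewer cells of a type cannot be told apart from less RNA per cell in these data.

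mtDNA is a small circular genome in the mitochondrial matrix, and its protein genes all code for subunits of the oxidative phosphorylation complexes. Both of its strands are transcribed by the mitochondrial RNA polymerase into long RNAs, which are cut, mostly at the tRNAs that separate the genes, into single messages, and most of these receive a short poly(A) tail. Nuclear genes encode the remaining subunits of complexes I, III, IV and V, and all subunits of complex II, which has no mtDNA-encoded subunit. Cardiac muscle is among the tissues with the most mitochondria, and the fetal heart is still moving toward oxidative metabolism at this stage.

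Total counts ran from 28948836 to 89675692 per heart, with mutant replicate 1 the deepest and mutant replicate 3 the shallowest library. All 16 cardiomyocyte markers examined had a mean of at least 1 CPM, and 3 of 9 liver markers passed the filter on low counts. CPM, the usual unit of expression, are counts relative to the library total after that total was corrected for composition. Ino80 stood at 30.2, 31.6 and 32.7 CPM in replicates 1 to 3 labelled control and at 36.5, 33.7 and 31.8 CPM in replicates 1 to 3 labelled mutant, so the whole-gene count did not separate the groups and the hearts are named by their labels. Control replicate 3 held the most erythroid RNA, at 3.79% of all counts on the erythroid marker list against 0.664% to 1.65% in the other 5 hearts.

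The sequences at the ends of the genes show how tightly mtDNA is packed and matter for how reads were assigned. The following are the last bases of members on the coding strand, from the GENCODE vM21 transcripts (GRCm38), with what mtDNA encodes of the stop codon in capitals.
mt-Co1: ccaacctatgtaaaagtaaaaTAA
mt-Atp6: ctatatctacatgataatacaTAA
mt-Co3: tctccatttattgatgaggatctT
mt-Nd4: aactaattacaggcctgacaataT
mt-Cytb: acaaaatactaaaattatatccaT

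For mt-Co3, mt-Nd4 and mt-Cytb only 1 base of the stop codon is encoded, and the poly(A) tail supplies the rest. mt-Atp6 lies at chromosome M 7927 to 8607 and begins inside mt-Atp8, at 7766 to 7969, so that both genes share 43 bases. In this shared stretch the capitals mark the start codon of mt-Atp6 and the stop codon of mt-Atp8.
mt-Atp8 and mt-Atp6: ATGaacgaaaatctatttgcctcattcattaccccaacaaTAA

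Part of mtDNA also has copies in the nuclear genome, and these copies had rows of their own in the count table. A comparison of every 76-base window, the read length, with the annotated GENCODE vM21 transcripts found 12 nuclear pseudogenes in the table. Each shares at least 1 identical window with an mtDNA gene, and copies outside annotated genes were not searched for. Of the members, mt-Co2, mt-Atp6 and mt-Co3 had 99.51%, 99.50% and 99.86% of their windows in such pseudogenes, mt-Nd4 had 61.47% and mt-Co1 had 39.39%. In mt-Nd2 and mt-Nd5 the shares were 5.61% and 1.54%, and mt-Nd1, mt-Nd6 and mt-Cytb shared no window with an annotated nuclear transcript. The copies that match best sit together on chromosome 1. A stretch of mt-Co2 is shown beside the same stretch of Gm28661 on chromosome 1, which is identical to it, and of Gm13341 on chromosome 2, where the 6 differing bases are in capitals. The stretches lie at chrM:7457-7516 on the plus strand, chr1:24615062-24615121 on the minus strand and chr2:22587471-22587530 on the minus strand (GRCm38, GENCODE vM21).
mt-Co2: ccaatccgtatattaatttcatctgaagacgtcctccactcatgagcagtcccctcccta
Gm28661: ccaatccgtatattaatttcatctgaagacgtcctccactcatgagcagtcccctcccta
Gm13341: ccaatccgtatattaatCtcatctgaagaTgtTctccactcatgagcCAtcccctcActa

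The counts of these rows followed the sequences. Gm28661 matched mt-Co2 without a mismatch over 681 bases, and its count was 1.0004 to 1.0043 times that of mt-Co2 in the 6 hearts. Control replicate 1, for example, had 273225 counts on mt-Co2 and 273663 on Gm28661. Gm28437, identical to mt-Co3 over 783 bases, had 1.008 to 1.016 times its count. Gm28439, which covers 63.57% of mt-Nd4, had 0.561 to 0.614 times its count, and Gm29216, which covers 31.26% of mt-Co1, had 0.284 to 0.317 times its count. In contrast, Gm13341, with 95.91% identity to mt-Co2, had 0.0516 to 0.0700 times its count. Rows of identical sequence thus carried almost equal counts, and the table does not tell apart a read from mtDNA and a read from its identical copy on chromosome 1. In the plot of copy over mitochondrial counts, the hearts of both groups overlap for each pair of rows.

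**Figure D1:**
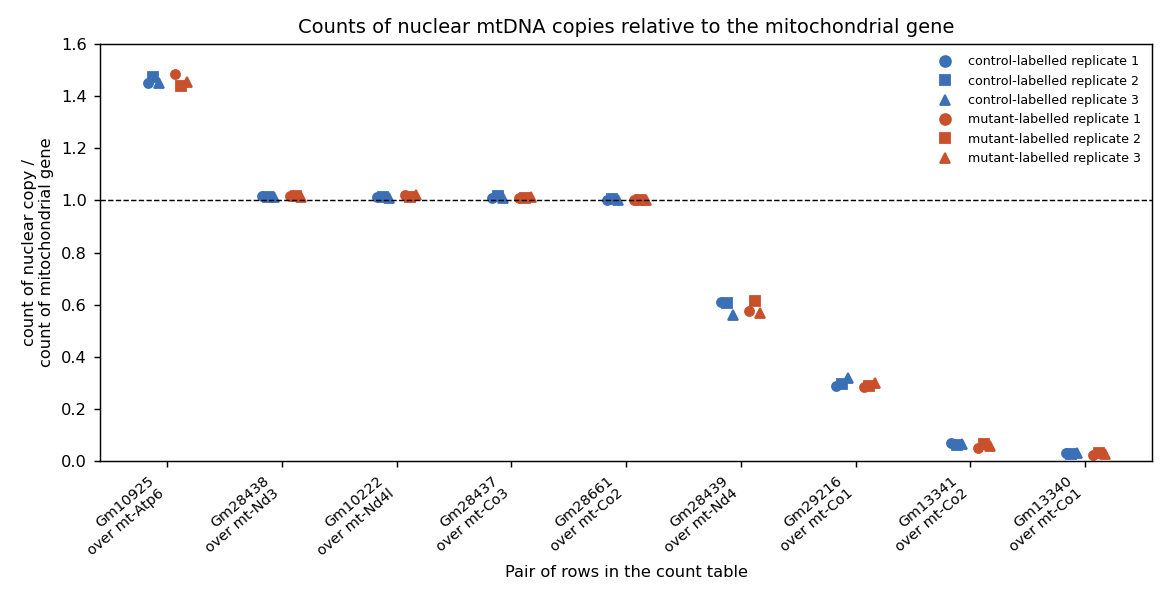
Count of each nuclear pseudogene divided by the count of the mtDNA gene it resembles (y axis, linear, no unit) for 9 pairs of rows, with 1 point per heart, blue for control-labelled and red for hearts labelled mutant, and a dashed line at 1. Gm28661 lies at 1.0004 to 1.0043 times mt-Co2 in all 6 hearts, and Gm10925 lies above 1.4 times mt-Atp6.

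mt-Atp6 was the exception in this comparison. Gm10925 is identical to it over 678 bases, but held 397797, 383795 and 306757 counts in replicates 1 to 3 labelled control and 776764, 431617 and 259516 in replicates 1 to 3 labelled mutant, or 1.44 to 1.48 times the count of mt-Atp6. Between 30.5% and 32.6% of the Gm10925 count was therefore not in mt-Atp6, with means of 31.4% ± 0.691 in hearts labelled control and 31.4% ± 1.04 in hearts labelled mutant (SD, n = 3 each). On mtDNA a fragment that reaches into mt-Atp8 overlaps 2 genes, whereas no row for a copy of mt-Atp8 was found beside Gm10925, and whether this accounts for the gap was not tested. The excess was alike in both groups, and Gm10925 had the same log2 fold change as mt-Atp6, at -0.27.

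The members were among the most abundant RNAs of the heart. Together they took 6.76%, 7.22% and 5.86% of all counts in replicates 1 to 3 labelled control and 6.13%, 6.67% and 5.77% in replicates 1 to 3 labelled mutant. These averaged 6.62% ± 0.691 and 6.19% ± 0.452 (SD, n = 3 each), and the groups overlapped. The totals included the rows of the nuclear copies. Without them shares were 7.03%, 7.54% and 6.06% in hearts labelled control and 6.33%, 6.92% and 5.97% in replicates 1 to 3 labelled mutant. mt-Co1 ranked 1 by mean CPM among the 17125 tested genes, nuclear copies included, 8 members were in the first 20, and mt-Nd6 was lowest at rank 71. All 10 passed the filter on low counts.

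Levels of different genes were compared as CPM per kilobase of gene. On this scale and in control-labelled hearts, the complex IV and V genes stood highest. mt-Co1 was at 11818 ± 1191, mt-Co3 at 11435 ± 1537, mt-Atp6 at 11068 ± 1757 and mt-Co2 at 10679 ± 973 CPM per kilobase (SD, n = 3 each). The ranges of these 4 genes over the 6 hearts overlapped from neighbour to neighbour, so their order is not resolved, and mt-Atp6 lacks the reads by which Gm10925 exceeded it. All 4 had 39.39% to 99.86% of their windows in nuclear pseudogenes, as had mt-Nd4 with 61.47%. The part of copy reads in these levels was not tested. mt-Cytb followed at 6098 ± 369 CPM per kilobase and its range did not overlap with that of mt-Co2 above or mt-Nd1 below. The complex I genes were lowest, at 4770 ± 598 for mt-Nd1, 3725 ± 730 for mt-Nd2, 3213 ± 583 for mt-Nd4, 2532 ± 327 for mt-Nd5 and 1932 ± 297 CPM per kilobase for mt-Nd6 (SD, n = 3 each). mt-Nd2 was above mt-Nd4 in 4 of the 6 hearts. The highest and lowest members differed 6.12-fold in hearts labelled control and 5.37-fold in hearts labelled mutant.

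Comparing the groups asks whether the mtDNA-encoded subunits changed in hearts labelled as lacking endothelial Ino80. Members of complex I had log2 fold changes from -0.22 to 0.06, and those of complexes III, IV and V from -0.34 to -0.10. Means were lower in hearts labelled mutant for 9 of the 10, and no member passed the test. The counts were compared gene by gene in edgeR (quasi-likelihood test), with scaling by TMM, which corrects library totals for composition, and p-values were adjusted by Benjamini-Hochberg over all 17125 tested genes. Of the members, 0 had an adjusted p under 0.05, as had 0% of all tested genes. At an unadjusted p under 0.05, 1 of the 10 members was lower and 0 were higher, while 9.98% of all tested genes were lower (1709 genes, with 1624 higher). The log2 fold change (mutant-labelled over control-labelled) was below 0 for 9 of 10 members and for 50.3% of all tested genes. The median was -0.11 over the members and -0.0017 over all tested genes. Single hearts moved this median, to -0.05 without control replicate 2, -0.06 without mutant replicate 3, -0.16 without mutant replicate 2 and -0.18 without control replicate 3. The members below 0 numbered 6 without mutant replicate 3, 7 without control replicate 1, 8 without control replicate 2 and 10 without control replicate 3 or mutant replicate 2. The members share hearts and precursor RNAs, so their directions are not independent of each other. The 5 members with long copied stretches (mt-Co1, mt-Co2, mt-Co3, mt-Atp6 and mt-Nd4) had a median of -0.14, and the other 5 had a median of -0.07. With the nuclear copies left out of the table the log2 fold change of mt-Co3 was -0.34, as with them. Removing those rows leaves the mt-Co3 count as it was, so the part of copy reads within it was not tested.

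**Figure D2:**
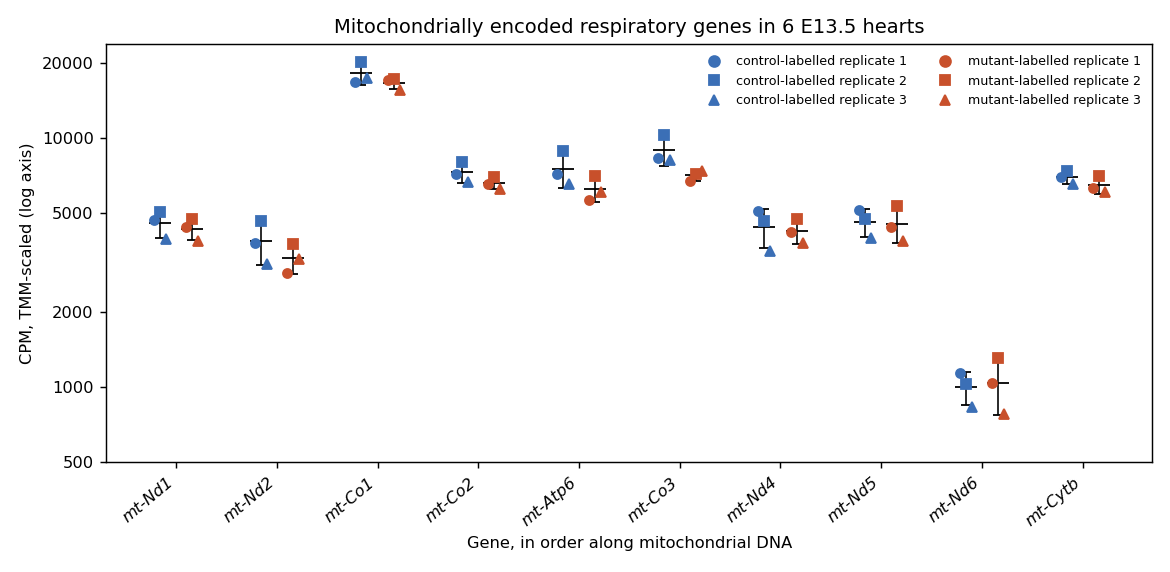
CPM scaled by TMM (y axis, log scale) of the 10 mtDNA-encoded respiratory genes in their order along mtDNA, with 1 point per heart, blue for 3 control-labelled and red for 3 hearts labelled mutant, and black bars for group mean and SD. The groups separate for mt-Co3, where the hearts labelled mutant sit between 6719 and 7399 CPM and the control-labelled hearts between 8197 and 10353 CPM.

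mt-Co3 encodes a core subunit of cytochrome c oxidase that does not itself carry the redox centres, and lies at chromosome M 8607 to 9390. It was at 8344, 10353 and 8197 CPM in replicates 1 to 3 labelled control and at 6719, 7193 and 7399 CPM in replicates 1 to 3 labelled mutant. All hearts labelled mutant lay below all control-labelled hearts, which was so for 1 of the 10 members and for 12.8% of all tested genes. The reverse, all hearts labelled mutant above, held for 0 of 10 members and 14.3% of all tested genes. The means were 8965 ± 1205 and 7104 ± 349 CPM (SD, n = 3 each), and the log2 fold change was -0.34 with a standard error of 0.12 and a 95% confidence interval from -0.61 to -0.06. The adjusted p was 0.19 (edgeR, Benjamini-Hochberg over all tested genes), with an unadjusted p of 0.023. DESeq2, the program of the study's methods, called mt-Co3 lower (adjusted p = 0.043), as it did 3.43% of the genes it tested, and called no other member. In edgeR the unadjusted p of mt-Co3 was 0.064 without control replicate 2, the highest heart, where the log2 fold change was -0.22. It was 0.071 without mutant replicate 1 and 0.053 without mutant replicate 2, and over all settings the adjusted p ran from 0.043 to 0.40. Without control replicate 1, edgeR called 2.49% of tested genes lower, and 0 members.

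The complex IV members together summed to 32388, 38721 and 32473 CPM in hearts labelled control and to 30523, 31523 and 29320 CPM in replicates 1 to 3 labelled mutant, without overlap. This sum includes mt-Co3, the only member without overlap, and 12.8% of all tested genes singly had all hearts labelled mutant below. mt-Co1 and mt-Co2 had smaller differences than mt-Co3. mt-Co1 encodes the catalytic subunit with the heme and copper centre at which oxygen is reduced (chromosome M 5328 to 6872). It was at 16866, 20344 and 17565 CPM in replicates 1 to 3 labelled control and at 17231, 17323 and 15633 CPM in replicates 1 to 3 labelled mutant, with overlap. Its log2 fold change was -0.13 (95% confidence interval -0.39 to 0.14, adjusted p = 0.56, edgeR), and it was -0.04 without control replicate 2. mt-Co2 encodes the subunit that receives electrons from cytochrome c (chromosome M 7013 to 7696). It was at 7178, 8024 and 6711 CPM in hearts labelled control and at 6573, 7006 and 6287 CPM in replicates 1 to 3 labelled mutant, also with overlap. Its log2 fold change was -0.14 (95% confidence interval -0.39 to 0.10, adjusted p = 0.48, edgeR), and it was -0.07 without control replicate 2.

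mt-Atp6 encodes subunit a of the ATP synthase, which forms the proton path through the membrane. It was at 7212, 8862 and 6537 CPM in replicates 1 to 3 labelled control and at 5665, 7051 and 6098 CPM in replicates 1 to 3 labelled mutant. The value of control replicate 3 was lower than that of mutant replicate 2. The log2 fold change was -0.27 (95% confidence interval -0.59 to 0.06, adjusted p = 0.33, edgeR). Leaving out control replicate 2 gave -0.13, and leaving out control replicate 3 gave -0.36.

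mt-Cytb encodes cytochrome b, the subunit of complex III that holds both quinone sites (chromosome M 14145 to 15288). It was at 6985, 7394 and 6550 CPM in hearts labelled control and at 6327, 7092 and 6115 CPM in replicates 1 to 3 labelled mutant. The groups overlapped, the log2 fold change was -0.10, and its standard error of 0.10 was the smallest among the members (adjusted p = 0.61, edgeR). Omitting single hearts gave -0.17 (mutant replicate 2) to -0.05 (mutant replicate 3).

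The complex I genes encode hydrophobic subunits of the membrane arm, which pumps protons. mt-Nd1, at the junction with the peripheral arm (chromosome M 2751 to 3707), was at 4706, 5053 and 3935 CPM in hearts labelled control and at 4391, 4766 and 3883 CPM in replicates 1 to 3 labelled mutant. mt-Nd2 (chromosome M 3914 to 4951) was at 3814, 4650 and 3137 CPM in hearts labelled control and at 2877, 3771 and 3284 CPM in replicates 1 to 3 labelled mutant. Both overlapped between the groups, and control replicate 2 was the highest heart in each.
mt-Nd4 (chromosome M 10167 to 11544) was at 5100, 4644 and 3538 CPM in hearts labelled control and at 4193, 4744 and 3785 CPM in replicates 1 to 3 labelled mutant. mt-Nd5 (chromosome M 11742 to 13565) was at 5137, 4751 and 3967 CPM in hearts labelled control and at 4408, 5345 and 3883 CPM in replicates 1 to 3 labelled mutant. Like mt-Nd2, these genes encode antiporter-like subunits, and in both the spread within a group exceeded the difference between the groups.
The log2 fold changes were -0.07 for mt-Nd1, -0.22 for mt-Nd2, -0.06 for mt-Nd4 and -0.02 for mt-Nd5, with adjusted p-values of 0.78, 0.46, 0.85 and 0.94 (edgeR). Those of mt-Nd1, mt-Nd4 and mt-Nd5 changed sign when single hearts were left out, and that of mt-Nd2 ran from -0.35 without control replicate 3 to -0.07 without control replicate 2.

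mt-Nd6 is the member transcribed from the opposite template strand, and its message is known to lack a long poly(A) tail (chromosome M 13552 to 14070). It was at 1142, 1029 and 838 CPM in hearts labelled control and at 1040, 1317 and 780 CPM in replicates 1 to 3 labelled mutant. The hearts labelled mutant included both its highest and its lowest value. The log2 fold change was 0.06, with the widest interval among the members, from -0.38 to 0.50 (adjusted p = 0.88, edgeR), and it was -0.14 without mutant replicate 2. The library kit does not mark strand, so RNA of the opposite strand across mt-Nd6 cannot be told apart from its own message. Set against the other 9 members, the mt-Nd6 count was 1.75%, 1.39% and 1.39% of their sum in hearts labelled control and 1.78%, 2.05% and 1.38% in replicates 1 to 3 labelled mutant. The log2 ratio was higher by 0.19 on average in hearts labelled mutant, which did not pass (exact two-sided permutation test, p = 0.4, where 3 hearts against 3 allow 0.1 at the least). That difference was 0.06 without mutant replicate 2 and 0.35 without mutant replicate 3.

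**Figure D3:**
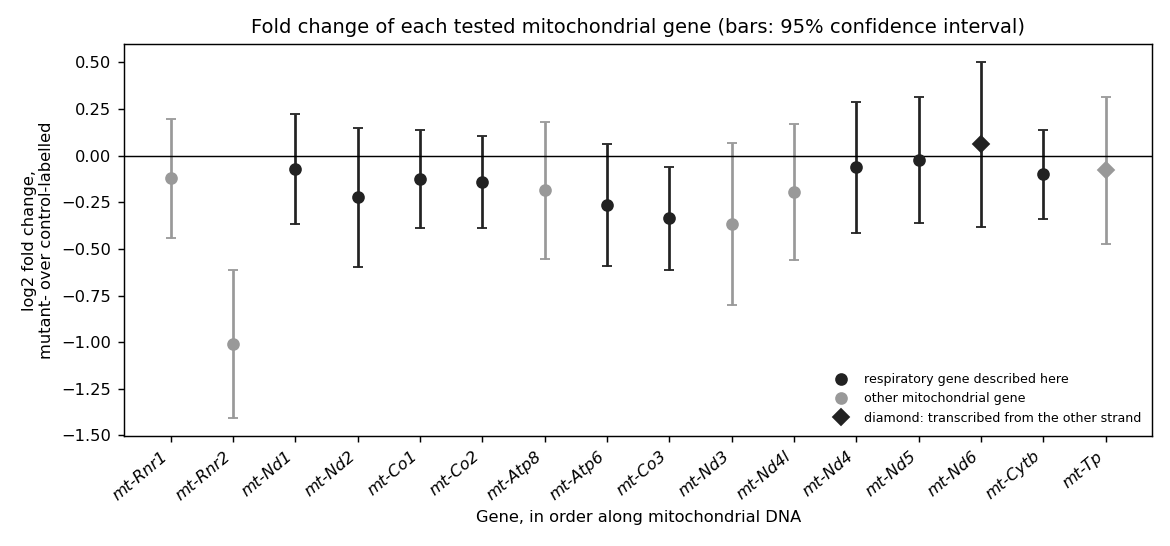
Log2 fold change, mutant-labelled over control-labelled (y axis, 0 marks no change), of the 16 mtDNA genes tested, in their order along mtDNA, with 95% confidence intervals from the edgeR fit. Black marks are the 10 respiratory genes described here, grey marks other mtDNA genes, and diamonds genes transcribed from the other strand. The intervals of 9 of the 10 members include 0, that of mt-Co3 ends at -0.06, and mt-Rnr2 lies at -1.01.

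Intervals bound what could have been missed. Over the 10 members the standard errors of the log2 fold changes ran from 0.10 to 0.19 and the 95% intervals reached from -0.61 at the lowest to 0.50 at the highest. Control replicate 2 was the highest heart for 7 members and mutant replicate 3 the lowest for 6, and the mean log2 CPM of the 10 genes ran from 0.21 above its average in the former to 0.18 below it in the latter. Control replicate 3 stood 0.12 below the average, which lay between mutant replicates 1 and 3. That heart also had the largest erythroid share. With the erythroid counts taken out of the total, the members made up 6.83%, 7.34% and 6.09% of the rest in hearts labelled control and 6.17%, 6.72% and 5.84% in replicates 1 to 3 labelled mutant, so control replicate 3 was still the lowest of its group.

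The composition of the mtDNA messages within a heart is independent of library scaling. mt-Co1 made up 27.1% ± 1.72 of the member counts in hearts labelled control and 27.6% ± 1.31 in hearts labelled mutant (SD, n = 3 each), and mt-Co2 made up 10.8% ± 0.163 and 10.9% ± 0.206. The share of mt-Co3 was 12.5%, 13.8% and 13.4% in hearts labelled control and 11.3%, 10.96% and 12.9% in replicates 1 to 3 labelled mutant, with overlap through mutant replicate 3. Its count was 0.495, 0.509 and 0.467 times that of mt-Co1 in hearts labelled control and 0.390, 0.415 and 0.473 times in replicates 1 to 3 labelled mutant. mt-Nd5 made up 6.85% ± 0.762 and 7.45% ± 0.677 of member counts, also with overlap. The same was so of all 10 shares.

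Of the mtDNA genes outside the 10, 6 were tested, and none passed an adjusted p of 0.05 in edgeR. The messages mt-Nd3, mt-Nd4l and mt-Atp8 had log2 fold changes of -0.37, -0.19 and -0.19 (adjusted p = 0.32, 0.51 and 0.53, edgeR). With 1 heart left out, mt-Nd3 ran from -0.51 (mutant replicate 2) to -0.16 (control replicate 2), mt-Nd4l from -0.33 (control replicate 3) to -0.07 (control replicate 1) and mt-Atp8 from -0.40 (mutant replicate 2) to -0.08 (mutant replicate 1). mt-Nd4l shares 7 bases and a message with mt-Nd4, and the count of mt-Nd4 was 6.72, 6.85 and 6.78 times that of mt-Nd4l in replicates 1 to 3 labelled control. In mutant-labelled replicates 1 to 3 it was 8.68, 7.29 and 6.54 times, a wider range. The tRNA gene mt-Tp, opposite in strand, had a log2 fold change of -0.08 (adjusted p = 0.82, edgeR).

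The 2 rRNA genes differed from each other. mt-Rnr2, the RNA of the large mitochondrial ribosomal subunit (chromosome M 1094 to 2675), was at 3495, 3743 and 2426 CPM in hearts labelled control and at 1589, 1798 and 1409 CPM in replicates 1 to 3 labelled mutant. All hearts labelled mutant lay below, as for 12.8% of all tested genes. The log2 fold change of mt-Rnr2 was -1.01 (adjusted p = 0.076, edgeR, with a standard error of 0.17). It was past the threshold with DESeq2 (adjusted p = 1.3e-07), which called 3.43% of its tested genes lower. In edgeR mt-Rnr2 passed without control replicate 1 (adjusted p = 0.041), where 2.49% of tested genes were called lower. It also passed with every gene of at least 1 count kept (adjusted p = 0.0033, edgeR). Over all settings its adjusted p reached 0.24 at most. mt-Rnr1, of the small subunit, was at 426, 525 and 444 CPM in hearts labelled control and at 466, 471 and 344 CPM in replicates 1 to 3 labelled mutant, with overlap and a log2 fold change of -0.12 (adjusted p = 0.65, edgeR). Both rRNAs come from the same precursor. The ratio of mt-Rnr2 to mt-Rnr1 counts was 8.20, 7.13 and 5.46 in hearts labelled control and 3.41, 3.81 and 4.09 in replicates 1 to 3 labelled mutant. Downstream of mt-Rnr2, mt-Nd1 had 1.35, 1.35 and 1.62 times its count in hearts labelled control and 2.76, 2.65 and 2.76 times in replicates 1 to 3 labelled mutant. Both ratios separated the groups in every heart, and neither was tested, as they were chosen after the values were seen. The study describes mRNA sequencing, and the step that selected mRNA or removed rRNA is not given in the sources used here. Of 4 nuclear-retained RNAs (Malat1, Neat1, Meg3 and Kcnq1ot1), 3 had a log2 fold change above 0, and their median log2(CPM + 1) was 4.67, 4.06 and 4.11 in hearts labelled control and 4.94, 4.84 and 4.67 in replicates 1 to 3 labelled mutant. By that median mutant replicates 1 and 2 were above all control-labelled hearts and mutant replicate 3 about equalled control replicate 1, while the mean and the sum of 215 to 349 CPM and 304 to 349.6 CPM overlapped. The part of RNA quality and library preparation in the mt-Rnr2 difference and in the members' values was not tested.

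**Figure D4:**
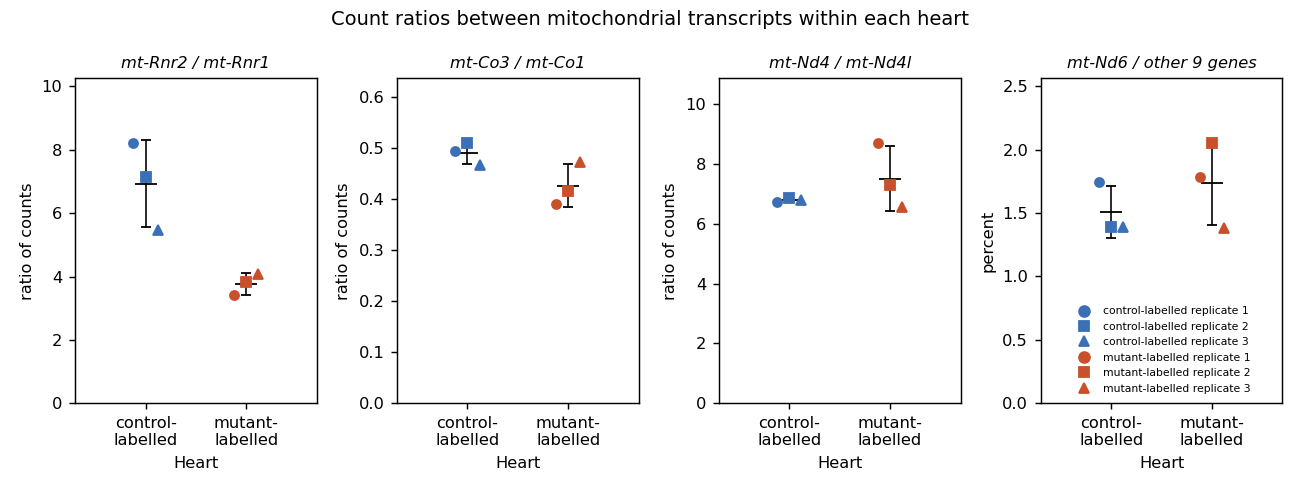
Ratios between mitochondrial counts within each heart (y axes, linear from 0, the fourth panel in percent), with 1 point per heart, blue for control-labelled and red for hearts labelled mutant, and black bars for group mean and SD (n = 3 each). The ratio of mt-Rnr2 to mt-Rnr1 lies at 5.46 or above in hearts labelled control and at 4.09 or below in hearts labelled mutant, while the groups overlap in the other 3 panels.

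Nuclear genes supply the remaining subunits of the same complexes. Of 77 such genes of complexes I, III, IV and V, 75 had a log2 fold change below 0 and 2 above, with a median of -0.26 against -0.11 for the mtDNA-encoded members. No gene of them passed an adjusted p of 0.05 in edgeR, and 27 were lower and 0 higher at an unadjusted p under 0.05. Of all tested genes, 9.98% were lower at that level and 50.3% had a log2 fold change below 0. By complex, the medians of the nuclear genes were -0.24 for complex I, -0.27 for III, -0.26 for IV and -0.26 for V, and those of the members were -0.06, -0.10, -0.14 and -0.27. The difference between the medians was not tested. As a mean of log2(CPM + 1), the nuclear genes stood at 7.42, 7.83 and 7.67 in hearts labelled control and 7.28, 7.43 and 7.47 in replicates 1 to 3 labelled mutant. The mean of the members was 12.44, 12.55 and 12.22 in hearts labelled control and 12.23, 12.43 and 12.16 in replicates 1 to 3 labelled mutant. The members lay above the nuclear genes by 4.76 ± 0.235 in hearts labelled control and 4.88 ± 0.164 in hearts labelled mutant (log2 units, SD, n = 3 each), a difference within the spread between hearts. It was 0.12, and ran from 0.01 without control replicate 3 to 0.24 without control replicate 1, with 0.21 when medians replaced means. Control replicate 1 was high for the members and lowest of its group for the nuclear genes.

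**Figure D5:**
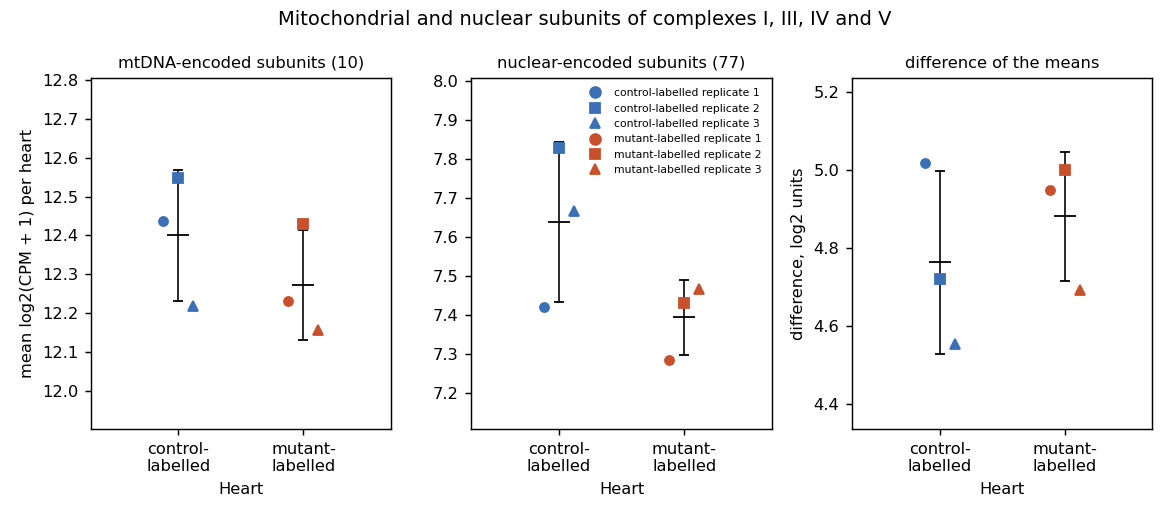
Mean log2(CPM + 1) per heart of the 10 mtDNA-encoded genes and of 77 nuclear genes of complexes I, III, IV and V, and the difference between these means (y axes, log2 units, each spanning the same height and not starting at 0), blue for control-labelled and red for hearts labelled mutant, with group mean and SD (n = 3 each). The groups overlap in all 3 panels.

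Nuclear genes also supply the proteins that transcribe, maintain and process mtDNA and its RNA. Of 18 genes of mtDNA transcription and replication, 0 were called by edgeR, 3 were lower at an unadjusted p under 0.05, 0 were higher, and the median log2 fold change was -0.05, where 9.98% of all tested genes were lower. The 3, taken for their small p, were Peo1, the mtDNA helicase Twinkle, at a log2 fold change of -0.34, Tefm, a mitochondrial elongation factor, at -0.32, and Mterf3, known as a negative regulator of mtDNA transcription, at -0.22 (adjusted p = 0.14, 0.22 and 0.25, edgeR). Tfam, which packages mtDNA and starts transcription, was at 64.2 ± 5.23 and 57.9 ± 2.06 CPM (SD, n = 3 each), and Polrmt, the polymerase, at 30.1 ± 1.78 and 31.8 ± 3.14 CPM. Both overlapped between the groups, and they were chosen for their role after the values were seen.

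Of 22 genes of mitochondrial RNA processing and stability, 0 were called and 3 were lower at an unadjusted p under 0.05, against 9.98% of all tested genes, with a median of -0.14. Ptcd2, a pentatricopeptide repeat protein known for processing of the mt-Cytb message, was at 57.2, 61.6 and 57.6 CPM in hearts labelled control and at 40.2, 40.5 and 43.9 CPM in replicates 1 to 3 labelled mutant. The groups did not overlap, as for 5 of the 22 genes and 12.8% of all tested genes with hearts labelled mutant below. The log2 fold change was -0.50 (adjusted p = 0.065, edgeR, with a standard error of 0.07), while mt-Cytb overlapped between the groups. Lrpprc, which stabilizes mitochondrial messages, had a log2 fold change of -0.18 (adjusted p = 0.25, edgeR), and so had Trmt10c, a subunit of mitochondrial RNase P (adjusted p = 0.26, edgeR).

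Of 12 regulators of mitochondrial biogenesis, 0 were called, an unadjusted p under 0.05 was met by 2 that were higher and 2 that were lower, with a median of -0.02. Of all 17125 tested genes, 1624 were higher and 1709 (9.98%) lower at that level. Ppara, a fatty acid-sensing nuclear receptor, was at 8.28, 21.6 and 14.7 CPM in hearts labelled control and at 6.73, 5.71 and 6.49 CPM in replicates 1 to 3 labelled mutant (log2 fold change -1.23, adjusted p = 0.11, edgeR). Ppargc1a, a coactivator of mitochondrial genes, had a log2 fold change of -0.33 (adjusted p = 0.20), and Esrrb, an estrogen-related receptor, of 0.43 (adjusted p = 0.093, both edgeR). Of 20 genes of mitochondrial content, 0 were called and 4 were lower at an unadjusted p under 0.05, against 9.98% of all tested genes, with a median of -0.15. Immt, Chchd3 and Slc25a3, of cristae and phosphate import, had log2 fold changes of -0.28, -0.34 and -0.26 (adjusted p = 0.18, 0.22 and 0.22, edgeR).

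Cell type markers were set beside the members. The 16 cardiomyocyte markers, led by Actc1 and Myh7, summed to 31622 to 39026 CPM over the 6 hearts, with 12 below and 4 above 0 in log2 fold change and a median of -0.16. Less their mean log2(CPM + 1), the members stood at 1.96 ± 0.324 in hearts labelled control and 1.91 ± 0.137 in hearts labelled mutant (SD, n = 3 each). The 10 pan-endothelial markers, led by Cdh5 and Pecam1, summed to 910 to 1150 CPM in hearts labelled control and 1006 to 1073 CPM in hearts labelled mutant, with a median of -0.01. The 11 erythroid markers tested, led by Hbb-bs and Hba-a1, summed to 9301 to 39407 CPM in hearts labelled control and 6443 to 11464 CPM in hearts labelled mutant, with a median of -1.11. Of these 11, 8 had a log2 fold change below 0 and 3 above, and the list's median log2(CPM + 1) was higher in hearts labelled mutant by 0.71 while its mean differed by -0.02. The 3 were the embryonic globins Hbb-bh1, Hbb-y and Hba-x, at 2.98, 2.26 and 2.03 (adjusted p = 0.065, 0.15 and 0.11, edgeR). All hearts labelled mutant were above for each, as for 14.3% of all tested genes, and the 3 were named after their values were seen. The 5 smooth muscle markers had a median of -0.11 and ran from -2.40 to 0.62, with Acta2 at -0.11 and Cnn1 at 0.48. Epicardial markers had a median of 0.11, with 5 above and 3 below 0, among them Upk3b at 0.57 and Tbx18 at -0.10. They summed to 187 to 204 CPM in hearts labelled control and 215 to 246 CPM in hearts labelled mutant, without overlap. Cnn1 and Upk3b (adjusted p = 0.13 and 0.083, edgeR) had all hearts labelled mutant above, as had 14.3% of all tested genes. Macrophage markers (Lyz2, Csf1r) had a median of 0.22. The 3 liver markers (Ahsg, Apoa2 among them) had one of -0.50, and liver RNA summed to at most 3.43 CPM. Apart from the share recomputed without erythroid counts, the part of these cell types in the members' values was not tested.

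The genes outside mtDNA whose profile over the 6 hearts was closest to the members' mean were Cdkn1b, Rpa3, Coq10b, Ube2w and 3830406C13Rik, at root mean square distances of 0.024 to 0.039 (log2) among 10164 tested genes with a mean of at least 10 CPM. mt-Nd1, the member closest to that mean, lay at 0.045, and mt-Nd6, the farthest, at 0.19. These distances describe the 6 hearts, and no test was made on them.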

How the data were processed

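Raw counts per gene for 6 hearts, 3 per group, were deposited by the authors without normalization. The authors sequenced 76 bp read pairs, aligned them with STAR 2.4.2a (GRCm38, GENCODE vM6) and counted them with summarizeOverlaps. The handling of strand, overlapping genes and reads with several matches is not given in the sources used here. The authors' table of their DESeq2 comparison holds means, fold changes and p-values, of which none was used. It served only to pair identifiers with symbols, and its other deposited values were left aside.

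The low-count filter was filterByExpr, with a minimum count of 10 and a total of 15, and counts were scaled by TMM and tested with edgeR 4.0.16 in R 4.3.3 with condition as the only term. The adjusted p threshold was 0.05. Standard errors are the log2 fold change divided by the square root of F. The alternatives were RLE scaling, DESeq2 1.42.0, other filters, thinning, a block for the replicate number, omission of single hearts and scaling without mtDNA genes. Nothing in the labels says that the hearts came from separate litters, and p-values measure the spread between these samples. The steps were tested on counts simulated with each gene independent of the others. Such counts hold no shift shared between genes, so that test does not bear on the members' calls.

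Gene positions and sequences came from GENCODE vM21 (GRCm38). The members and gene lists were chosen with earlier results of these data known. All 10 members, each other tested mtDNA gene, the 3 genes of smallest p in each list of mitochondrial expression, biogenesis and content, the 2 most abundant markers per cell type and the 5 closest profiles were named by rule. Genes with identical 76-base windows were found after the counts had been seen. Of 12 candidate pseudogenes listed by name, 9 shared such a window.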

Additional observations from a re-analysis of the deposited data

How the results depend on the processing

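The count of members called by edgeR was 0 in the main setting and in each fit that left out 1 heart, and 1 with DESeq2 (mt-Co3). Over all genes, 0 were called, against 603 when every gene with 1 or more counts was kept, 1013 with DESeq2, 14 with the replicate block, and 0 to 751 when 1 heart was left out, the highest without control replicate 1. Correlations of deviations between same-numbered hearts were 0.02, -0.08 and -0.07, which gave no sign of pairing by number but cannot exclude shared litters. The paper states that litter mates served as controls. Under the block 0 members were called and 2 were lower at an unadjusted p under 0.05. Signs of small differences depended on single hearts. The log2 fold change became 0.010 without control replicate 2 and 0.0090 without mutant replicate 3 for mt-Nd1, 0.053 without control replicate 1 and 0.018 without mutant replicate 3 for mt-Nd4, and 0.061 and 0.083 in these fits for mt-Nd5. For mt-Nd6 it became -0.053 without control replicate 3 and -0.14 without mutant replicate 2, and without mutant replicate 3 it became 0.016 for mt-Rnr1 and 0.10 for mt-Tp. The opposite ends of these ranges were -0.17 without control replicate 3 for mt-Nd1, -0.20 without that heart for mt-Nd4, 0.24 without mutant replicate 3 for mt-Nd6 and, without mutant replicate 2, -0.16 for mt-Nd5, -0.20 for mt-Rnr1 and -0.21 for mt-Tp. The cause was not tested. The difference in the members' share of counts, -0.42 percentage points, ran from -0.80 to -0.12 when 1 heart was left out, lowest without control replicate 3 and highest without control replicate 2. Leaving the nuclear copies out of the table, added after seeing the data, called 0 members. Removing these rows cannot change the members' own counts, so it does not show how many of them come from copies. RLE, scaling without mtDNA genes, other filters and thinning left every member's sign as it was.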
